A study of Mus musculus with 18 samples.

Results

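10 genes of kidney amino acid breakdown are described here: Ido2, Afmid, Kmo, Kynu, Haao, Acmsd and Qprt of the kynurenine pathway, Aadat, which works in both pathways, and Aass and Dhtkd1 of lysine breakdown. They were chosen by gene symbol, all 10 were found among the 19518 genes of the table, and all 10 were among the 12030 that passed the filter on low values. The list was drawn up around Aadat, which earlier results had singled out for lower values on a high fat diet (HFD) than in control kidneys, with Dhtkd1 named beside it, which HFD+AOS against HFD (groups given in the next paragraph) may have brought in. The values of HFD against control therefore chose the leading gene and are given as a description, with no test of the members. For the same reason Aadat is given no test in any comparison that holds HFD or control libraries, and Dhtkd1 none in any that holds HFD+AOS or HFD libraries.

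The values come from messenger RNA of kidneys that had been frozen. The mice were of the outbred ICR stock and 10 weeks old, and there were 18 libraries, 3 in each of 6 groups. The groups were HFD mice given a faecal microbiota transplant labelled AOS 10 mg/kg (HFD+AOS-FMT), HFD mice given AOS at 10 mg/kg themselves (HFD+AOS), HFD mice given a control transplant (HFD+control-FMT), HFD mice with nothing further, mice given AOS at 10 mg/kg without the diet label (AOS), and controls. AOS is written as in the labels, which do not spell it out, do not describe the transplant donors and do not give the hour of collection. The labels do not say whether each group's libraries stand for different mice, so the p-values speak of the variation among these libraries, part or all of which may be technical.

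Tryptophan enters the kynurenine pathway when a dioxygenase (Tdo2, Ido1 or Ido2) opens its ring. The formamidase Afmid then releases kynurenine, the mitochondrial monooxygenase Kmo hydroxylates it, the kynureninase Kynu splits it, and the dioxygenase Haao forms an unstable semialdehyde. That product either closes by itself to quinolinate, which Qprt uses to start NAD synthesis, or is decarboxylated by Acmsd and lost to NAD. Aadat is an aminotransferase that makes kynurenic acid from kynurenine and also carries out the step of lysine breakdown that yields 2-oxoadipate. In that second pathway Aass, a 2-part mitochondrial enzyme, first joins and splits lysine by way of saccharopine, and Dhtkd1 is the dehydrogenase subunit that oxidises 2-oxoadipate. The proximal tubule of the kidney is one of the main sites of both pathways outside the liver.

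Control replicate 3 stands apart from the other 17 libraries and touches every comparison with the controls and, through the shared spread, all others. Its correlation with them across genes ran from 0.948 to 0.963, against 0.979 to 0.993 among the other 17. In it the 11 adrenal genes of the marker list summed to 1063 in normalized signal, against 53.1 to 70.4 elsewhere, the 17 immune cell genes to 1228 against 298 to 515, and the 18 proximal tubule genes to 7443 against 8367 to 10415. The labelled tissue was checked on 10 kidney genes, all of which passed the filter. They summed to 19515 in control replicate 3, against 117887 to 169007 elsewhere, a sum led by the androgen-regulated tubule gene Kap, which took 2.48% of all signal in that library and 17.2% to 22.9% elsewhere. Transcripts of testis germ cells summed to 20.4 to 36.2 in the 3 treated HFD groups, 69.4, 71.7 and 29.2 in HFD, 29.0 to 33.8 in AOS and 71.0 to 74.3 in control libraries. Their part in the members' values was not tested, since all controls and HFD replicates 1 and 2 are high and a fit with them as a batch leaves the HFD side to replicate 3 alone. Counts of passed genes are given with and without control replicate 3. The relative depth of the libraries, read from steps of low values, ran from 0.909 in control replicates 1 and 3 to 1.03, and the number of reads itself is not known.

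Levels of the members differed widely. The signal is treated as normalized for transcript length, so levels can be set side by side. Haao had a mean signal of 208.3 over the 18 libraries, Aadat 178.7 and Aass 149.8, all above at least 94.8% of tested genes. Afmid (98.0), Acmsd (75.9), Kmo (64.8) and Qprt (46.7) followed. Dhtkd1 stood at 15.3, Ido2 at 5.78 and Kynu at 3.39, the last being pulled up by 1 library. Tdo2 and Ido1, the other dioxygenases of the entry step, were listed at no more than 0.32 and 0.15 in any library and did not pass the filter, so Ido2 was the only one of the 3 that did.

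**Figure D1:**
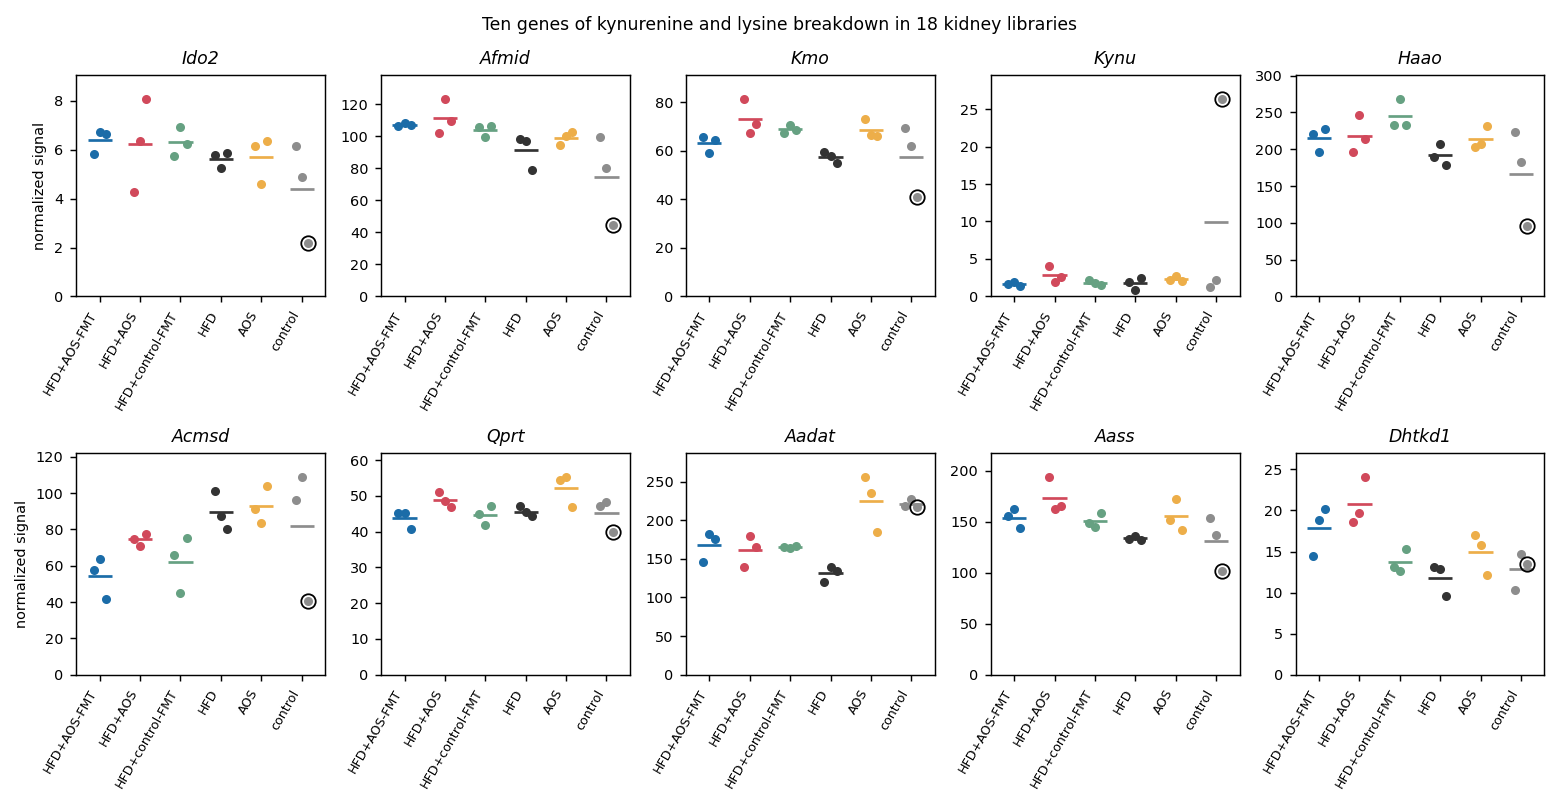
Normalized signal (y axis, from 0) of each of the 10 genes in every library, by group, with 1 point a library and a bar at the group mean (n = 3). The ringed point is control replicate 3, far above all others for Kynu at 26.32; the 12 HFD libraries of Aadat sit between 120.0 and 181.84, below the 6 others.

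Aadat, the aminotransferase shared by both pathways, had lower values in the libraries of HFD mice. Its signal was 145.8, 181.84 and 175.63 in HFD+AOS-FMT, 139.69, 179.12 and 165.77 in HFD+AOS, and 164.84, 163.58 and 166.38 in HFD+control-FMT. It was 120.0, 140.04 and 134.74 in HFD, 255.31, 235.19 and 185.39 in AOS, and 217.78, 227.95 and 217.25 in control libraries. All 12 libraries of HFD mice lay below all 6 of mice without the diet, the nearest pair being 181.84 in HFD+AOS-FMT and 185.39 in AOS. Of the 12030 genes, 0.0748% were lower in the 12 than in the 6 with no overlap. That pooling was chosen after the values had been seen and contains the HFD and control libraries that chose Aadat, so nothing is read from it. Aadat was the only member of the 10 split in this way.

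Against HFD, whose libraries chose the gene, Aadat had log2 differences of 0.34 in HFD+AOS-FMT, 0.29 in HFD+AOS and 0.33 in HFD+control-FMT, given with no test. The group means of Aadat were 168 ± 19.3 in HFD+AOS-FMT, 162 ± 20.1 in HFD+AOS, 165 ± 1.40 in HFD+control-FMT, 132 ± 10.4 in HFD, 225 ± 36.0 in AOS and 221 ± 6.03 in control (SD, n = 3 each). AOS and control stood highest and HFD lowest. The 3 groups between them overlapped in their values, as did AOS and control. HFD against control had a log2 difference of -0.75, on the scale of log2(signal + 1) used throughout, and -0.76 without control replicate 3. In that comparison the 2 groups did not overlap for 15.7% of all tested genes (3.03% higher in HFD and 12.6% lower) and for 1 of the 10 members, Aadat, which was chosen for it. Control replicate 3 did not stand apart for Aadat, at 217.25 against a mean of 222.9 in control replicates 1 and 2. In whole kidney, fewer cells of a type and less RNA per cell cannot be told apart, here or in any result that follows.

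HFD+AOS against AOS compares mice with and without the diet label, all given AOS, and is not a plain repeat of HFD against control. It shares no library with HFD against control, where Aadat was singled out. Whether other earlier results of these libraries entered the choice is not known. Aadat stood at 162 ± 20.1 in HFD+AOS and 225 ± 36.0 in AOS (SD, n = 3 each), with no overlap and a log2 difference of -0.47 (SE 0.12, 95% confidence interval -0.72 to -0.22). It did not pass in limma over all genes (adjusted p = 0.147), nor without control replicate 3 (adjusted p = 0.0622). In this comparison limma called 0% of all genes, with 11.1% at an unadjusted p under 0.05, and 0 of the 9 members tested, with 1 (Aadat) at an unadjusted p under 0.05. Without control replicate 3 it called 1.31% of all genes and again 0 members. There was no overlap between groups for 24.2% of genes (12.5% higher in HFD+AOS and 11.7% lower) and for 3 of 10 members, 1 higher and 2 lower, so the members' share is near that of all genes. The median log2 difference of the members was 0.09, beside -0.002 for all genes tested. Leaving out 1 library moved the difference of Aadat between -0.61 and -0.37, and its sign held in each case.

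The promoters of Aadat and Dhtkd1 are shown because Aadat led the choice of the members and Dhtkd1 had the widest difference of any member higher in HFD+AOS than in HFD. They are RefSeq sequences of GRCm38.p6 (mm10), 5′ to 3′ on the gene's strand, from 250 bases before the RefSeq start to 50 after it, in lower case with motif matches in capitals. Aadat is at chr8:60505874-60506173 on the plus strand and Dhtkd1 at chr2:5942743-5943042 on the minus strand. In GENCODE M21 the genes themselves span chromosome 8, 60505932 to 60545677 (Aadat), and chromosome 2, 5896115 to 5942792 (Dhtkd1). The starts of the 2 annotations are the same for Dhtkd1, while the RefSeq start of Aadat lies 192 bases inside the GENCODE gene.
Aadat: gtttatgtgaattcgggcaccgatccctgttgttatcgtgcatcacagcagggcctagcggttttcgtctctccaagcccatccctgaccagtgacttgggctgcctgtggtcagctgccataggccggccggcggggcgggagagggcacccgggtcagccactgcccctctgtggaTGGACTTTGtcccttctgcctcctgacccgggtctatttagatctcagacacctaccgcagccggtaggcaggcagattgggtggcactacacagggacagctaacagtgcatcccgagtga
Dhtkd1: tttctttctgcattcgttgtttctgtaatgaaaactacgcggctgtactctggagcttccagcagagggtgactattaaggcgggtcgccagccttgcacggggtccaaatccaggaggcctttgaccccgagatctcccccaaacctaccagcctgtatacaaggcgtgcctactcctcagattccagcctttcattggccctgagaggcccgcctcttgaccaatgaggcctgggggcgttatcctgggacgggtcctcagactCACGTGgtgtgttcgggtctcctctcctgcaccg

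Both strands were searched for 4 motifs: CACGTG, the E-box read by clock activators, TTATGTAA, the D-box, GTTAAT, an HNF1 half-site, and CAAAGTCCA, an HNF4 site. HNF1 and HNF4 are transcription factors of proximal tubule and liver genes. Aadat held the HNF4 motif on the opposite strand, 72 bases before the RefSeq start and so inside the GENCODE gene, as did 0.477% of the 27025 promoters in the table. Dhtkd1 held an E-box from 16 bases after its start, as did 7.24% of promoters. Haao had an HNF1 half-site, as did 7.20% of promoters. Of the 10 members, 8 had a promoter sequence to search, and Kynu and Ido2 had none. Kmo, Qprt, Acmsd, Afmid and Aass held none of the 4 motifs. The D-box, in 0.955% of promoters, was in none of the 8, and no matches overlapped. A match is a description of these letters and was not tied to any binding.

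Dhtkd1, the lysine pathway dehydrogenase, had its highest group mean in HFD+AOS. Its signal was 18.56, 19.7 and 24.02 in HFD+AOS, against 13.09, 12.85 and 9.56 in HFD, so every HFD+AOS library was higher than every HFD library. The group means were 20.8 ± 2.88 in HFD+AOS and 11.8 ± 1.97 in HFD (SD, n = 3 each), a log2 difference of 0.77. This comparison may have chosen the gene, so the values are a description with no test, and nothing is read from them. Leaving out 1 library moved the difference between 0.63 and 0.84.

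In the other groups Dhtkd1 stood at 14.43, 18.87 and 20.24 in HFD+AOS-FMT, 13.06, 12.67 and 15.3 in HFD+control-FMT, 17.04, 15.77 and 12.18 in AOS, and 10.28, 14.75 and 13.51 in control libraries. The 2 highest group means were 20.8 in HFD+AOS and 17.9 in HFD+AOS-FMT, and HFD+AOS-FMT replicate 1 lay within the ranges of HFD+control-FMT, AOS and control. HFD+AOS-FMT did not overlap HFD, with a log2 difference of 0.55, and HFD+AOS did not overlap AOS, with 0.45, both given with no test. HFD+AOS-FMT against HFD+control-FMT, which shares no library with HFD+AOS or HFD, had 0.35 (SE 0.16, 95% confidence interval 0.00 to 0.70, limma adjusted p = 0.709), and 1 of its 3 libraries lay within the range of HFD+control-FMT. Whether AOS acted differently on the diet and off it was not tested, because the difference of differences contains HFD against control.

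Acmsd, which steers the pathway away from NAD, had lower values in the treated HFD groups than in HFD or AOS. Its signal was 57.68, 63.53 and 41.71 in HFD+AOS-FMT, 74.93, 71.02 and 77.62 in HFD+AOS, and 66.09, 45.17 and 75.11 in HFD+control-FMT. It was 101.44, 87.67 and 80.2 in HFD, 91.35, 83.34 and 104.15 in AOS, and 96.46, 108.64 and 40.71 in control libraries. All 9 libraries of the treated HFD groups were below all 3 of HFD, as 1.52% of genes were, and below all 3 of AOS, as 1.32% of genes were. These poolings were chosen after the values had been seen.

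No comparison called Acmsd with all 18 libraries. The log2 difference from HFD was -0.73 in HFD+AOS-FMT (SE 0.28, limma adjusted p = 0.272), -0.55 in HFD+control-FMT (SE 0.28, adjusted p = 1.00) and -0.26 in HFD+AOS (SE 0.28, adjusted p = 0.732). HFD+AOS-FMT stood below HFD+AOS with no overlap and a log2 difference of -0.47 (SE 0.28, adjusted p = 0.895), and HFD+AOS below AOS likewise with -0.31 (SE 0.28, adjusted p = 0.753). The standard error of 0.28 was shared by all groups and contained control replicate 3. Without that library Acmsd passed in HFD+AOS-FMT against HFD (adjusted p = 0.0342), with the same difference, in a fit that called 4.86% of all genes there, against 0.175% with all libraries. The difference of HFD from control was 0.24 with control replicate 3 and -0.19 without it. The 15 marker genes of other nephron segments summed to 1480 to 2240 in HFD+AOS-FMT, 1189 to 1363 in HFD+AOS, 1345 to 1386 in HFD+control-FMT, 1025 to 1466 in HFD, 1227 to 1722 in AOS and 1508 to 2442 in control libraries. Of these, 14 of 15 were higher in HFD+AOS-FMT than in HFD (median log2 difference 0.44) and 0 were called. Of all genes 62.4% were higher there and 0.175% were called. The 18 proximal tubule genes summed to 9285 to 10087 in HFD+AOS-FMT, against 8818 to 9215 in HFD. Of the 18, 11 were higher and 7 lower (median log2 difference 0.03), and 0 were called. The part of either list in the values of Acmsd was not tested.

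The 13 circadian clock genes of the marker list summed to 282 to 331 in HFD+AOS-FMT, 295 to 327 in HFD+AOS, 168 to 241 in HFD+control-FMT, 129 to 159 in HFD and 155 to 218 in AOS. In control libraries the sums were 120.7, 132.1 and 338.5. Control replicate 3, with the highest sum, was the lowest of all 18 libraries for Acmsd, as for most members, and held Dhtkd1 at 13.51. Acmsd was 45.17 to 75.11 in HFD+control-FMT and 83.34 to 104.15 in AOS, groups whose clock sums overlapped. In HFD+AOS against HFD 9 clock genes were higher and 4 lower (median log2 difference 0.61). Of these, 8 were higher and 4 lower without overlap, the lower ones being Arntl, Npas2, Clock and Cry1. The sum therefore adds genes that moved in opposite directions, and opposite signs do not show whether they changed together. The part of clock genes or of the hour of collection, which the labels do not give, in the values of Acmsd and Dhtkd1 was not tested.

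**Figure D2:**
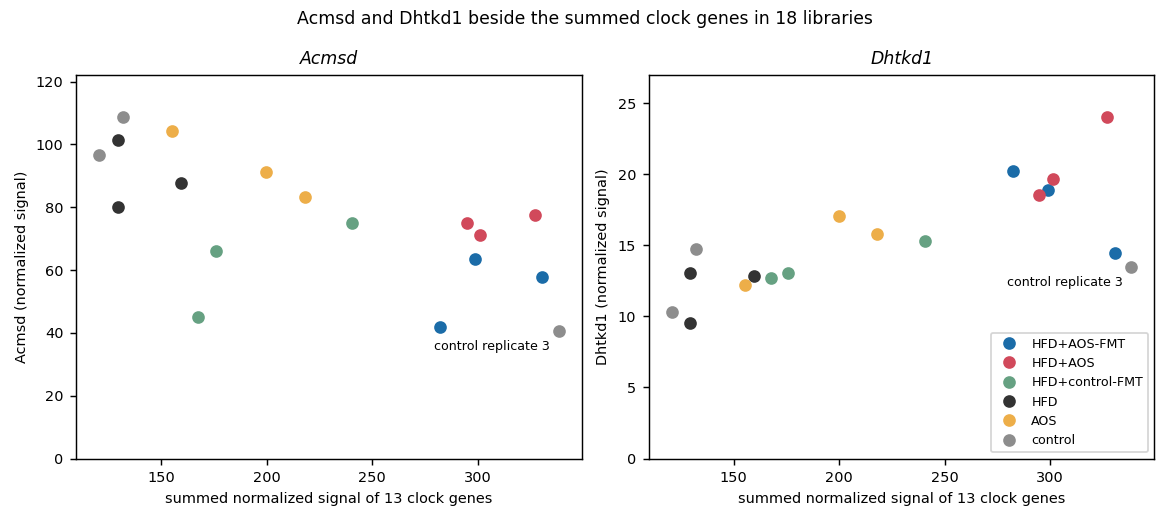
Signal of Acmsd (left) and Dhtkd1 (right) on the y axes against the summed signal of 13 clock genes on the x axes, 1 point a library, coloured by group. Libraries with clock sums of 282 or more hold Acmsd at 40.71 to 77.62 and Dhtkd1 at 13.51 to 24.02, control replicate 3 being the lowest of them for both. HFD+control-FMT, with sums of 168 to 241, holds Acmsd at 45.17 to 75.11.

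Haao makes the semialdehyde that Acmsd removes, and the ratio of their signals within a library is free of scaling. Acmsd over Haao was 0.256 ± 0.0706 in HFD+AOS-FMT, 0.345 ± 0.0497 in HFD+AOS and 0.258 ± 0.0795 in HFD+control-FMT. It was 0.470 ± 0.0590 in HFD, 0.435 ± 0.0274 in AOS and 0.486 ± 0.0956 in control (SD, n = 3 each). The highest library of the 3 treated HFD groups was at 0.383 and the lowest of HFD, AOS and control at 0.403, so these 2 sets did not overlap and control replicate 3 did not stand apart. The ratio and the 2 sets were chosen after the values had been seen, and no test was given. The share of other gene ratios that split the libraries in this way was not counted, so nothing is read from the split. Qprt over Acmsd, NAD entry against diversion, was 0.825 ± 0.135 in HFD+AOS-FMT, 0.656 ± 0.0445 in HFD+AOS and 0.744 ± 0.159 in HFD+control-FMT. It was 0.512 ± 0.0443 in HFD, 0.569 ± 0.108 in AOS and 0.638 ± 0.296 in control (SD, n = 3 each), and its highest library was control replicate 3 at 0.979.

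Qprt itself varied least of the 10 members, with a coefficient of variation of 8.64% over the 18 libraries. It lay between 39.84 and 55.14, and its highest group was AOS at 52.1 ± 4.55, against 45.2 ± 4.64 in control (SD, n = 3 each, log2 difference 0.20, SE 0.08, limma adjusted p = 0.372), and the difference was 0.12 without control replicate 3. The 12 genes of NAD synthesis and use that passed the filter, of 14 measured, had 0 calls in the 7 tested comparisons, and their median log2 difference lay between -0.06 (AOS against control) and 0.13 (HFD+AOS-FMT against HFD).

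Aass and Kmo had their highest group mean in HFD+AOS. Aass stood at 193.52, 162.38 and 165.36 in HFD+AOS, against 133.53, 136.36 and 131.86 in HFD, without overlap. Its means were 174 ± 17.2 in HFD+AOS and 134 ± 2.27 in HFD (SD, n = 3 each, log2 difference 0.37, SE 0.12, limma adjusted p = 0.156). Aass was also above HFD in all libraries of both transplant groups, which held 144.44 to 162.43. Kmo stood at 81.29, 67.55 and 70.88 in HFD+AOS, against 59.68, 57.96 and 54.83 in HFD (log2 difference 0.34, SE 0.14, adjusted p = 0.245). In this comparison limma called 0 of the 8 members tested, with 2 (Aass and Kmo) at an unadjusted p under 0.05, and 0.823% of all genes (0.466% higher and 0.357% lower), with 15.1% at an unadjusted p under 0.05. Without control replicate 3 Aass (adjusted p = 0.0155) and Kmo (0.0129) passed, 2 of 8, in a fit that called 6.72% of all genes. That library is in neither group and enters this comparison through the spread alone. The 18 proximal tubule genes summed to 9638 to 10415 in HFD+AOS, against 8818 to 9215 in HFD. The 8 hepatocyte marker genes summed to 1807 to 2073 in HFD+AOS, against 1574 to 1662 in HFD, a sum led by Cyp2e1. Of the 5 hepatocyte marker genes tested, 1 was higher and 4 lower in HFD+AOS than in HFD. Their part in these values was not tested.

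Afmid, the enzyme that releases kynurenine, was above HFD in all 9 libraries of the treated HFD groups, at 99.45 to 123.22 against 79.06 to 98.12 in HFD. Aass shared this pattern, as did 3.50% of tested genes. Haao was highest in HFD+control-FMT, at 233.15, 268.03 and 233.4, against 189.17, 207.1 and 178.27 in HFD. Ido2 had its highest mean in HFD+AOS-FMT, 6.39 ± 0.489, and its lowest in control, 4.41 ± 2.04 (SD, n = 3 each), and no 2 compared groups of it were free of overlap. Kmo overlaps the gene of fumarate hydratase (Fh1) on the opposite strand, Afmid overlaps the thymidine kinase gene Tk1 and the predicted gene Gm20708, Acmsd overlaps the antisense gene 2900009J06Rik, and Dhtkd1 the antisense gene Gm13267. Whether the authors' counting used strand is not given in the sources used here, so reads of these pairs cannot be told apart with certainty.

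Against HFD, most members had positive log2 differences. They were positive for 7 of 10 members in HFD+AOS-FMT (median 0.16, beside 0.05 for all genes tested, of which 62.4% were positive). In HFD+AOS 9 were positive (median 0.29, beside 0.01 and 53.1%), and in HFD+control-FMT 8 (median 0.18, beside 0.01 and 53.7%). These comparisons share the HFD libraries, and the HFD libraries also chose Aadat. In HFD+AOS-FMT 4 members were higher without overlap and 1 was lower, where 25.2% of all genes did not overlap, 17.3% higher and 7.86% lower. In HFD+AOS 4 members were higher and 1 lower, where 28.2% of genes did not overlap, 16.2% higher and 12% lower. In HFD+control-FMT 5 were higher and 1 lower, where 15.4% of genes did not overlap, 9.07% higher and 6.38% lower. The lower member was Acmsd each time. In HFD+AOS-FMT against HFD limma called 0 of the 8 members tested, with 1 (Acmsd) at an unadjusted p under 0.05, as 13.3% of genes were, and 0.175% of all genes (0.0998% higher and 0.0748% lower). In HFD+control-FMT against HFD it called 0 of 8 and 0% of all genes, with 0 members at an unadjusted p under 0.05, as 4.5% of genes were. Without control replicate 3 the counts were 1 of 8 (Acmsd, beside 4.86% of genes) and 0 of 8 (beside 0%).

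**Figure D3:**
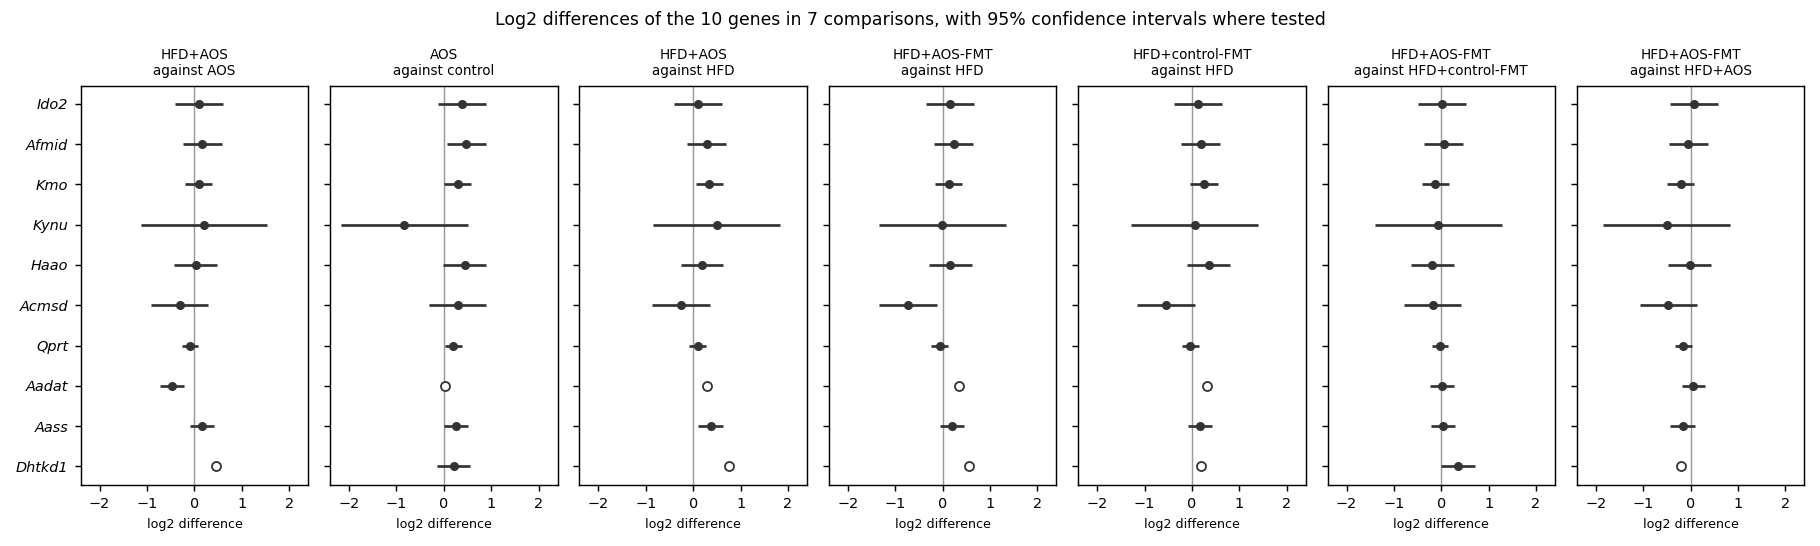
Log2 differences (x axes, log2 of signal + 1) of the 10 genes in 7 comparisons, as filled points with 95% confidence intervals from limma where tested (n = 3 libraries a group) and as open points where Aadat or Dhtkd1 were given no test. Dhtkd1 in HFD+AOS against HFD has the largest positive difference, 0.77, and Acmsd lies below 0 in all 3 comparisons with HFD.

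The transplants were set against each other and against AOS given directly. HFD+AOS-FMT against HFD+control-FMT had a median log2 difference of -0.01 over the members (0.04 over all genes), with 5 positive and 5 negative, where 61.9% of all genes were positive. Limma called 0 of 10 members and 0% of all genes (0 members and 0.116% of genes without control replicate 3), with 1 member (Dhtkd1) and 7.02% of genes at an unadjusted p under 0.05. Without overlap 1 member was higher (Afmid) and 2 were lower (Kmo and Haao), as 12.4% and 5.67% of genes were. Aadat differed by 0.02 (SE 0.12, 95% confidence interval -0.23 to 0.27). HFD+AOS-FMT against HFD+AOS had a median of -0.16 (0.03 over all genes), with 2 of 10 positive, where 60% of all genes were. Of the 9 tested, 0 were called, with or without control replicate 3, and 0 were at an unadjusted p under 0.05 beside 6.05% of genes. Kmo, Qprt and Acmsd were lower in HFD+AOS-FMT without overlap, as 4.63% of all genes were, and 0% of all genes were called, also without control replicate 3.

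AOS against control, the comparison of AOS without the diet, holds control replicate 3 in one of its groups. The log2 difference was positive for 9 of 10 members, with a median of 0.28 beside -0.09 for all genes, of which 27.1% were positive, and the median was 0.09 without control replicate 3. Limma called 0 of the 9 members tested, with 3 (Qprt, Afmid and Aass) at an unadjusted p under 0.05, as 12.7% of genes were. It called 0.0333% of all genes (0.00831% higher and 0.0249% lower), and 0 members and 0% of genes without control replicate 3. No member was without overlap, against 13.2% of genes (3.07% higher and 10.1% lower). It shares the control libraries that chose Aadat. Aadat, with no test, differed by 0.02. Afmid had 0.48 (SE 0.19, adjusted p = 0.372), Haao 0.44 (SE 0.21, adjusted p = 0.402) and Aass 0.26 (SE 0.12, adjusted p = 0.388). Without control replicate 3 the differences were 0.15 for Afmid, 0.08 for Haao and 0.09 for Aass.

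In control replicate 3 most members were low together, and Kynu was high. Relative to the mean of control replicates 1 and 2, its signal was 0.395 times for Ido2, 0.397 times for Acmsd, 0.470 times for Haao, 0.499 times for Afmid, 0.622 times for Kmo, 0.696 times for Aass and 0.833 times for Qprt. Aadat, at 0.975 times, and Dhtkd1, at 1.08 times, were close to the other controls. Kynu stood at 26.32 in this library, 15 times the mean of the other 2, and at 0.88 to 4.09 in the other 17. It was the lowest of all 18 libraries for Kmo, Haao, Qprt, Acmsd, Afmid, Ido2 and Aass. The same library had the low proximal tubule sum of 7443 and the high adrenal and immune cell sums of 1063 and 1228, and their part in these values was not tested.

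**Figure D4:**
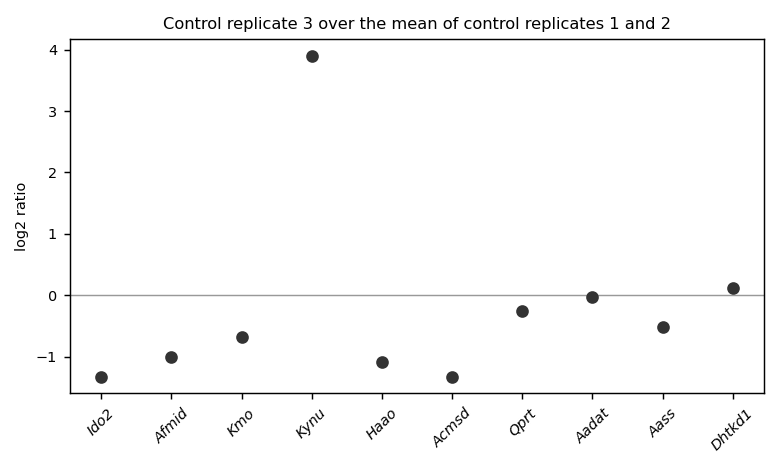
Log2 ratio (y axis) of the signal in control replicate 3 to the mean of control replicates 1 and 2, for each of the 10 genes (x axis, 1 point a gene). Kynu, at 15 times, is far above 0, Aadat and Dhtkd1 lie near 0, and the other 7 lie below it.

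Partner enzymes of both pathways gave few calls. Of 19 measured tryptophan and kynurenine partners 15 passed the filter, and 1 was called in the 7 tested comparisons. This was Ddc, the decarboxylase that makes serotonin and dopamine, which fell to 17.6 ± 4.51 in HFD+AOS-FMT, against 33.5 ± 3.62 in HFD (SD, n = 3 each, log2 difference -0.92, SE 0.16, limma adjusted p = 0.0436). Its signal was 21.22, 18.94 and 12.53 in HFD+AOS-FMT, against 35.07, 29.33 and 36.02 in HFD, without overlap. In HFD+AOS it was 24.52, 23.32 and 21.85, also below every HFD library and not called. In HFD+control-FMT it was 28.7, 38.03 and 32.39, which overlapped HFD. In HFD+AOS-FMT against HFD 0.175% of all genes were called. The call of Ddc there held in 7 of 27 alternatives, which for Ddc were added after the data had been seen (adjusted p from 0.00374 to 0.28, log2 difference from -1.06 to -0.71). Leaving out 1 library ended it except for HFD+AOS replicate 3, control replicate 1 and control replicate 3 (0.0497, 0.0292 and 0.0061). Kyat1 and Kyat3 are other kidney aminotransferases that can form kynurenic acid. Kyat3 stood at 44.6 ± 6.94 in HFD+AOS and 66.3 ± 13.9 in AOS (log2 difference -0.55, adjusted p = 0.207), and Kyat1 at 90.6 ± 13.3 in HFD+AOS and 85.6 ± 8.02 in AOS. Of 23 measured lysine partners 22 passed the filter and 0 were called in these 7 comparisons.

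Among the lysine partners, Aldh7a1, which acts between Aass and Aadat, stood at 155 to 178 in all 6 group means. Gcdh, the glutaryl-CoA dehydrogenase after Dhtkd1, had 183 ± 2.86 in HFD+AOS and 160 ± 3.45 in HFD (SD, n = 3 each, log2 difference 0.19, limma adjusted p = 0.132, and 0.0292 without control replicate 3). Ogdh, the subunit of the citric acid cycle related to Dhtkd1, had 217 ± 6.59 in HFD+AOS and 214 ± 7.65 in HFD (SD, n = 3 each). The lysine partners had a median log2 difference of 0.06 in that comparison, with 18 of 22 positive, beside 0.01 and 53.1% positive for all genes.

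Library-to-library relations with Aadat were computed within groups. Group means were removed, and the deviations of Aadat were set against those of each other member over the 18 libraries, with an exact permutation test within groups (46656 orders, two-sided) and adjustment over the 9 relations. Dhtkd1 had the largest r, at 0.557 (rho = 0.519, permutation p = 0.0551 and 0.0695, adjusted p = 0.496 and 0.626), and 0.407 without AOS replicate 3 and HFD+AOS replicate 1, which lay farthest from the median on Aadat. For the other 8 members r ran from -0.150 to 0.194, with permutation adjusted p of 0.846 or more. None of the 9 passed.

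Over the 18 libraries with group means kept, 6 genes had the pattern most like that of Aadat among 11616 tested genes with a mean of at least 1. Aldh1l1, a folate dehydrogenase, had r = 0.858, Cyp2d9, a cytochrome P450 of male mice, 0.772, Dnajb5 0.763, Hpd, the tyrosine breakdown enzyme 4-hydroxyphenylpyruvate dioxygenase, 0.753, Arhgap22 0.748 and Faap100 0.745. There was 1 predicted gene, which was passed over. All these values come from the same libraries with their shared depth and composition, and r is given as a description. Aldh1l1 stood at 168.3 ± 12.5 in HFD+AOS, 157.5 ± 4.56 in HFD, 191.9 ± 15.2 in AOS and 187.3 ± 2.16 in control (SD, n = 3 each). No other member ranked above 3007 of 11616 on this measure, that rank being Qprt with r = 0.309.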

How the data were processed

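The submitters' processing notes name Bowtie 0.12.2 and mm10. The authors deposited normalized signal values per gene symbol without a stated unit. How reads were counted, with which annotation and how normalized is not stated there or in the labels. Column sums varied by 3.50% (coefficient of variation), and by 0.815% after multiplication by transcript length, so the signal was treated as normalized for length and depth. Values were mapped to groups by column names matching sample titles. Of 19545 entries, 26 symbols turned into dates and 1 repeat were left out. Genes at 1 or more in at least 3 libraries were kept. The log2(signal + 1) values of all 18 libraries were fitted across all genes in limma 3.58.1 (R 4.3.3) as 6 groups, with trend and robust estimation, two-sided tests and, within a comparison, Benjamini-Hochberg adjustment over all genes. The fit was tried on simulated normal noise with each gene's own spread and no outlying library. For HFD+AOS against AOS it called 56% of genes shifted by a log2 change of 0.5 and 94% of those shifted by 1. It made 11 false calls with 12030 genes in all. These shares are over genes of all spreads, in values where many genes were shifted, while 0 genes were called in the real comparison. They do not give the recovery for a single member. Differences near 0.5 or smaller can be missed. Larger ones can be missed too where the spread is wide, as for Acmsd (SE 0.28) and Kynu (SE 0.63). Correlations used scipy 1.17.1. Relative depth came from 56 of 292 short genes whose low values were whole multiples of a step within a share of 0.15. Coordinates are GRCm38 (mm10). The members and lists were chosen with earlier results of these data known. Tests planned for Aadat against HFD or control, and for Dhtkd1 where HFD+AOS or HFD libraries enter, are not given. Those libraries chose Aadat and may have chosen Dhtkd1. The tests left out include the only member call, Dhtkd1 in HFD+AOS against HFD. That call is no support for a difference, since the same values may have chosen the gene. The rule for named genes takes all members, 7 direct enzyme partners, up to 4 listed genes that passed per comparison, and the 6 genes with the highest Pearson r to Aadat. Comparisons of pooled groups and the ratios were chosen after the values had been seen. Alternatives covered the offset, filters, quantile normalization, spread, groups fitted, replicate block, array weights, a germ cell batch term and leaving out each library.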

Additional observations from a re-analysis of the deposited data

How the results depend on the processing

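Among the members tested, 0 passed in any of the 7 comparisons with all libraries. In HFD+AOS against HFD 2 of 8 passed with array weights (Aass and Kmo, beside 943 of 12030 genes) and 1 in a fit of only the 2 groups compared (Aass, beside 314), where 99 genes passed with all libraries. Leaving out 1 library gave 0 to 2 there, the 2 without control replicate 3, beside 808 genes. HFD+AOS against AOS gave 1 member with array weights (Aadat, adjusted p = 0.0367, beside 276 genes). HFD+AOS-FMT against HFD, where 21 genes passed with all libraries, gave 1 (Acmsd) with array weights, beside 641 genes, and 0 to 1 when 1 library was left out, the 1 without control replicate 3, beside 585 genes. The other 4 comparisons kept a member count of 0 in all 27 alternatives. The replicate numbers did not pair the samples: in 0 of 15 pairs of groups did every same-numbered pair correlate above 0.1, and a library correlated best with its own number in 26 of 90 cases. With the replicate block, 45 genes passed in HFD+AOS against HFD where 99 did without it. The median of all genes in HFD against control was -0.10, and 0.01 after quantile normalization.

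Aadat in AOS against control was -0.0401 with the germ cell batch, a fit that rests on HFD replicate 3 against the other 2 HFD libraries, and from -0.081 to 0.149 when 1 library was left out, and in HFD+AOS-FMT against HFD+control-FMT from -0.0433 to 0.115. Acmsd in HFD against control was -0.18 with array weights and from -0.19 to 0.50 when 1 library was left out. Within groups, the correlation of Aadat with Haao was -0.056 and with Aass -0.061 without control replicate 3, and with Acmsd 0.019 after quantile normalization. The causes were not tested. Reads per library are unknown, which limits what can be said of Kynu and Ido2, the members with the lowest signal.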
